A study of Mus musculus with 20 samples.

Results

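The immunity-related GTPases (IRG proteins) and the guanylate-binding proteins (GBPs) are 2 related groups of interferon-inducible GTPases, and 9 of their genes were followed in mouse intestinal tissue: Igtp, Irgm1, Irgm2, Iigp1, Tgtp1, Gbp2, Gbp3, Gbp6 and Gbp7. The array named 25034 genes in all, and 8 of the 9 genes had a probe carrying their symbol, with 12 probes among them (4 for Irgm1, 2 for Iigp1 and 1 for each other gene). Tgtp1 had none, because the probe for that sequence is named Tgtp2 and its annotation lists transcripts of both genes, which it cannot tell apart. The 9 genes were chosen by how they differed in the 2 comparisons described here, so their differences, and the limma calls among them, describe that choice and support nothing further.

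RNA was measured on 20 one-colour Agilent arrays. The study's methods describe C57BL6/j mice 8 to 12 weeks old. The Cre control group (n = 6) carried VillinCreER, a tamoxifen-dependent Cre recombinase driven by the villin promoter and therefore active in the intestinal epithelium. The BRAFV600E group (n = 6) carried the same Cre and 1 BrafV600E-LSL allele, a knock-in of the activated kinase that Cre switches on. Both were given tamoxifen at 2 mg a day for 3 days, and the intestine was collected 3 days after the final dose. In the MEKi group (n = 4) and the Vehicle group (n = 4), mice received 2 tamoxifen injections of 1 mg and then 3 daily injections of the MEK inhibitor PD184352 or of its solvent; the study describes these mice as expressing the mutant allele, while their labels name the treatment alone. A treatment text in the labels describes a statin experiment and matched none of the 4 groups, so it was not used. The first comparison asks what 3 days of mutant Braf did to the tissue, and the second what blocking MEK, the kinase below BRAF, did to it.

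IRG and GBP proteins form part of the cell's own defence against microbes that live inside vacuoles. Interferon-gamma, made chiefly by T cells and NK cells, binds the receptor encoded by Ifngr1 and Ifngr2, the kinases JAK1 and JAK2 carry the signal on, and transcription factors such as IRF1 switch on these genes in many cell types, the gut epithelium among them. Effector IRG proteins (Iigp1, Tgtp1) assemble on the vacuole and break it, regulatory IRG proteins (Igtp, Irgm1, Irgm2) sit on the cell's own membranes and hold the effectors inactive there, and GBPs coat the same vacuoles or the freed microbe.

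Promoters of interferon-induced genes often carry a GAS element (gamma-activated sequence), searched here as TTCNNNGAA, a pattern that reads the same on both strands. Many carry an ISRE (interferon-stimulated response element), which IRF1 binds, searched on both strands as GAAA, any 2 bases and GAAA again. RefSeq windows of 300 bases (250 before and 50 after each annotated start, GRCm38.p6) were at hand for 7 of the 9 genes, Iigp1 and Gbp6 being without one. An ISRE match was found in 7 of these 7 genes and a GAS match in 4, where 3.44% of all 32851 mouse windows held an ISRE match, 8.30% a GAS match and 0.454% both. A second window of Gbp3 held neither. The stretches that hold the matches, 5′ to 3′ in the direction of the gene and with the matched letters in capitals, are shown because they are a feature of these genes that the choice by array values did not use. Tgtp1 is included although its own level was not measured. The genes belong to families known as interferon-inducible, so such matches could be foreseen and test nothing. The stretches of Igtp, Irgm2 and Tgtp1 are nearly alike and do not count as separate finds.
Igtp: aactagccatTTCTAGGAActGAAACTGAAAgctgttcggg
Irgm2: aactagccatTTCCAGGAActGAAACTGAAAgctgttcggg
Tgtp1: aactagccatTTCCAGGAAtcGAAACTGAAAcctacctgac
Irgm1: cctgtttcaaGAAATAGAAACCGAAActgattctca
Gbp2: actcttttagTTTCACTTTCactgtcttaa
Gbp3: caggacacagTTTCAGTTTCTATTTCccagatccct
Gbp7: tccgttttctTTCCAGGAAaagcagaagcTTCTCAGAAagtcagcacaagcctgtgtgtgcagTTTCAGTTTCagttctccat

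In Igtp (chr11:58199501-58199541, plus strand), Irgm2 (chr11:58214892-58214932, plus strand) and Tgtp1 (chr11:48992304-48992344, minus strand), the GAS match was followed after 2 bases by the ISRE match. Igtp and Irgm2 lie next to each other on chromosome 11. Irgm1 (chr11:48871425-48871460, minus strand) held 2 overlapping ISRE matches, the first starting 30 bases before its start, and no GAS match. Gbp3 (chr3:142559989-142560024, plus strand) also held 2 overlapping ISRE matches, and Gbp2 (chr3:142620594-142620623, plus strand) held 1. Gbp7 (chr3:142530220-142530302, plus strand) had 2 GAS matches, 106 and 87 bases before its start, and 1 ISRE match 53 bases before it. A match is a run of letters, and binding was not measured.

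**Figure D1:**
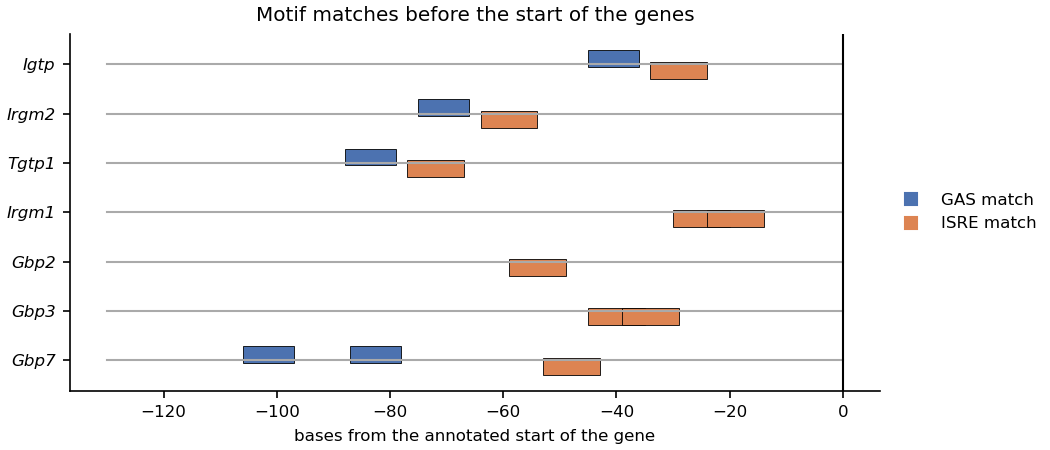
Positions of the GAS matches (blue) and ISRE matches (orange) before the annotated start of 7 genes, with bases from the start on the horizontal axis. Igtp, Irgm2 and Tgtp1 show the same pair of adjacent boxes, at 45, 75 and 88 bases before the start.

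Across the 20 arrays, 60.8% to 76.8% of the spots were well above background. The controls of the first experiment were all hybridised on slide 1 together with BRAFV600E replicates 1 and 2, while BRAFV600E replicates 3 to 6 were on slide 2. MEKi and Vehicle filled the 2 rows of slide 3, 1 group to a row, so row and treatment cannot be told apart. The 2 experiments were compared only within themselves. Levels are log2 signals minus the array's 75th percentile, and 1 unit is a doubling; levels of different probes are not comparable. The main probe of each of the 8 genes was well above background on all 20 arrays. The number of arrays limits the precision, and p-values measure only the spread between these samples. The tissue is a mixture, so fewer cells of a type and less RNA per cell cannot be told apart.

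Under MEK inhibition, the level of each of the 8 measured genes was higher on average than under Vehicle, by a median of 1.29 on the log2 scale, where the median over all 19230 genes tested was 0.04. The regulatory IRG genes and Gbp6 had the larger differences, from 1.62 (Irgm1) to 2.69 (Igtp), and Gbp7 the smallest at 0.36. With limma over all genes and Benjamini-Hochberg adjustment at 0.05, 3 of the 8 were called higher (Igtp, Irgm1 and Gbp6) and 0 lower, where 1.06% of all genes tested were called higher and 0.889% lower. For 5 of the 8 genes (Igtp, Irgm1, Irgm2, Gbp3 and Gbp6) every MEKi array lay above every Vehicle array, which held for 6.35% of all genes, with 5.83% of genes lying entirely lower. These counts restate the choice of the genes. The calls depended on single arrays: 7 of the 8 were called without MEKi replicate 2 (all but Gbp7), 1 without MEKi replicate 3, Vehicle replicate 1 or Vehicle replicate 4, and 0 without MEKi replicate 1, MEKi replicate 4 or Vehicle replicate 3. Calls over all genes also fell in most of these fits, from 374 to 370 without MEKi replicate 2, to 88, 189 and 101 in the fits with 1 member called, and to 76, 147 and 118 in those with 0. The median difference of the 8 genes stayed between 1.14 and 1.59 whichever array was left out. With the signal of Y-linked genes as a covariate 0 of the 8 and 54 of all genes were called, while the median difference was 1.21.

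In the separate mutant experiment, in which no inhibitor was given, 7 of the 8 genes had a lower mean than in Cre control, with a median of -0.45 against -0.02 over all 19037 genes tested. Gbp2 and Gbp3 were called lower and 0 of the 8 were called higher, where 6.51% of all genes tested were called lower and 6.40% higher. Gbp3 alone of the 8 had groups that did not overlap, which held for 3.26% of all genes on the lower side and 4.23% on the higher side.

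**Figure D2:**
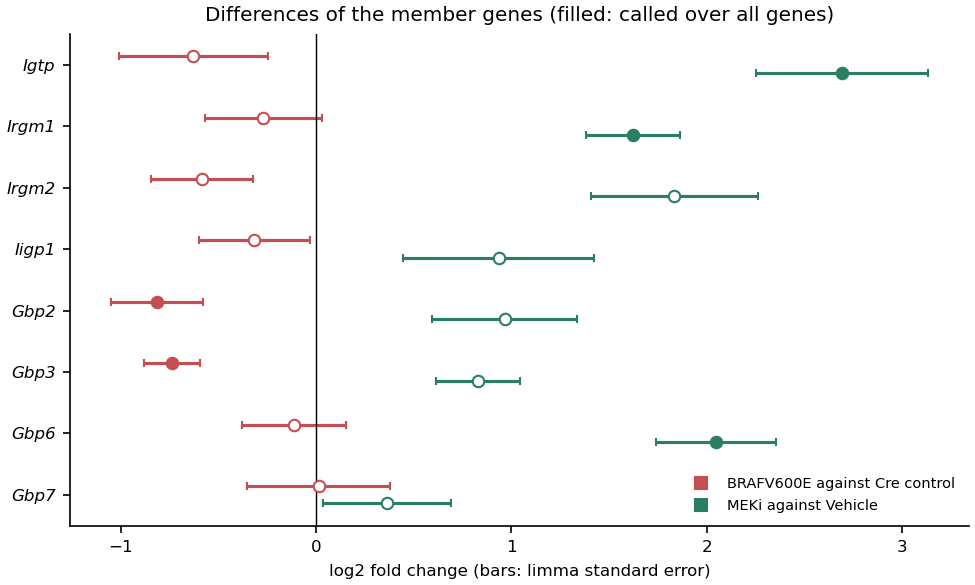
Log2 fold change of each gene (main probe) in BRAFV600E against Cre control (red) and MEKi against Vehicle (green), with limma standard errors as bars and filled points for genes called over all genes tested. The green points lie at 0.36 to 2.69 and the red points at -0.82 to 0.01.

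Igtp, also called Irgm3, is a regulatory IRG protein of the endoplasmic reticulum and lipid droplets. Its probe lies at chr11:58020927-58020986 (mm9). Its level was 3.63, 2.09, 3.94 and 3.79 on MEKi replicates 1 to 4 and 1.1, 0.20, 1.14 and 0.23 on Vehicle replicates 1 to 4. All MEKi arrays were above all Vehicle arrays, with MEKi replicate 2 far below the other 3. The difference was 2.69 ± 0.44 (SE), or 6.47-fold, above that of 99.9% of the genes tested. In the first experiment, Igtp ran from 2.42 to 3.49 in Cre control (median 2.65) and from 0.38 to 3.10 in BRAFV600E (median 2.37). The mutant group spread over a wider range and 4 of its 6 arrays lay below every control, with a difference of -0.63 ± 0.38 (SE). Without MEKi replicate 2 the MEKi difference was 3.12, and without BRAFV600E replicate 2 the mutant difference was -0.28.

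Irgm1, a regulatory IRG protein of the Golgi, lysosomes and mitochondria that is also needed for normal autophagy, had 4 probes. Its main probe (chr11:48679069-48679128, mm9) read 1.70, 1.50, 2.16 and 1.63 on the MEKi arrays and 0.34, -0.51, 0.24 and 0.43 on the Vehicle arrays. The MEKi arrays lay close together and all above Vehicle, by 1.62 ± 0.24 (SE), or 3.08-fold. Of the other probes, 2 gave MEKi differences of 1.57 ± 0.26 and 1.49 ± 0.34 (SE), again without overlap. The fourth (chr11:48675495-48675554) was well above background on 0 of 12 arrays of the first experiment and on 1 MEKi and 1 Vehicle array, and gives no comparison. In the mutant comparison the 3 measured probes differed by -0.27 ± 0.30, -0.09 ± 0.30 and 0.18 ± 0.38 (SE), which did not share a sign and were each under their standard error. Cre control ranged from 0.12 to 1.29 (median 0.98) and BRAFV600E from -0.56 to 1.34 (median 0.69) on the main probe, so the groups overlapped widely.

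Irgm2, the regulatory IRG protein of the Golgi whose gene neighbours Igtp (probe at chr11:58036064-58036123, mm9), read 2.28, 0.63, 2.58 and 2.41 on the MEKi arrays. The Vehicle arrays read 0.54, -0.09, 0.35 and -0.23. The groups did not overlap, but MEKi replicate 2 cleared the highest Vehicle array narrowly. The difference was 1.83 ± 0.43 (SE), or 3.56-fold, and 2.28 without MEKi replicate 2. In the first experiment Irgm2 ran from 1.49 to 2.21 in Cre control (median 1.69) and from -0.07 to 1.73 in BRAFV600E (median 1.34). Of the 6 mutant arrays, 5 lay below every control, with a difference of -0.59 ± 0.26 (SE).

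The effector Iigp1 (Irga6, on chromosome 18) read 0.82, -1.36, 1.03 and 0.61 on its main probe in MEKi and -0.64, -0.87, -0.61 and -0.51 in Vehicle. MEKi replicate 2 fell below every Vehicle array and the other 3 lay above them all. The difference of 0.93 ± 0.49 (SE) became 1.48 without that array. The second Iigp1 probe showed the same order, with 3 MEKi arrays above and 1 below all Vehicle arrays and a difference of 0.39 ± 0.26 (SE). In BRAFV600E the main probe ran from -0.36 to 1.11 (median 0.02), against -0.29 to 1.02 in Cre control (median 0.53), and the groups overlapped.

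The probe named Tgtp2, which stands for Tgtp1 and Tgtp2 together (effectors known as Irgb6), showed the Iigp1 pattern. Its signal cannot be separated from that of Tgtp1, one of the 9 genes, so it is no outside repeat. Its level was 2.05, -0.12, 2.12 and 1.97 on the MEKi arrays and 0.80, 0.63, 0.75 and 0.51 on the Vehicle arrays. Again 3 MEKi arrays were above all Vehicle arrays and replicate 2 was below them. The difference was 0.83 ± 0.48 (SE, limma adjusted p = 0.454) and 1.37 without that array. In the mutant comparison it was -0.44 ± 0.22 (SE, limma adjusted p = 0.208).

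Among the GBPs, Gbp6 (chr5:105700081-105700140, mm9) had the largest MEKi difference. Its level was -1.97, -2.72, -1.14 and -1.75 in MEKi and -3.90, -4.16, -4.05 and -3.66 in Vehicle. Even the lowest MEKi array was above all Vehicle arrays, and the difference was 2.05 ± 0.31 (SE), or 4.14-fold. In the mutant comparison its groups lay almost on each other, with medians of -2.55 in BRAFV600E and -2.47 in Cre control and a difference of -0.12 ± 0.27 (SE).

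Gbp3 (chr3:142236072-142236131, mm9) was the gene in which both comparisons separated. In Cre control it ran from 0.22 to 0.70 (median 0.57) and in BRAFV600E from -0.63 to 0.01 (median -0.16). The highest mutant array was below the lowest control, and the difference was -0.74 ± 0.14 (SE), or 1.67-fold lower. On the MEKi arrays it read -0.13, -0.80, 0.20 and -0.17, against -1.14, -1.11, -1.17 and -0.81 on the Vehicle arrays. MEKi replicate 2 cleared Vehicle replicate 4 by 0.01 only, and the difference was 0.83 ± 0.21 (SE), or 1.78-fold.

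Gbp2, a lipid-anchored GBP that gathers on the vacuoles of Toxoplasma (probe at chr3:142300719-142300778, mm9), ran from 0.20 to 1.36 in Cre control (median 0.85) and from -0.52 to 0.51 in BRAFV600E (median 0.04). Of the 6 mutant arrays, 4 were below every control, and the difference was -0.82 ± 0.24 (SE), or 1.76-fold lower. It read 1.17, -0.50, 1.18 and 0.75 on the MEKi arrays and -0.06, -0.30, -0.20 and -0.71 on the Vehicle arrays. MEKi replicate 2 lay inside the Vehicle range and the other 3 above it, and the difference of 0.97 ± 0.37 (SE) became 1.35 without that array.

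Gbp7 (chr3:142209379-142209438, mm9) differed least. Its level was -3.40, -3.63, -2.49 and -3.47 in MEKi and -4.12, -3.44, -3.93 and -2.96 in Vehicle. Only MEKi replicate 3 was above all Vehicle arrays, and the difference was 0.36 ± 0.33 (SE). BRAFV600E ran from -3.61 to -1.60 and Cre control from -3.22 to -1.66, a difference of 0.01 ± 0.37 (SE).

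**Figure D3:**
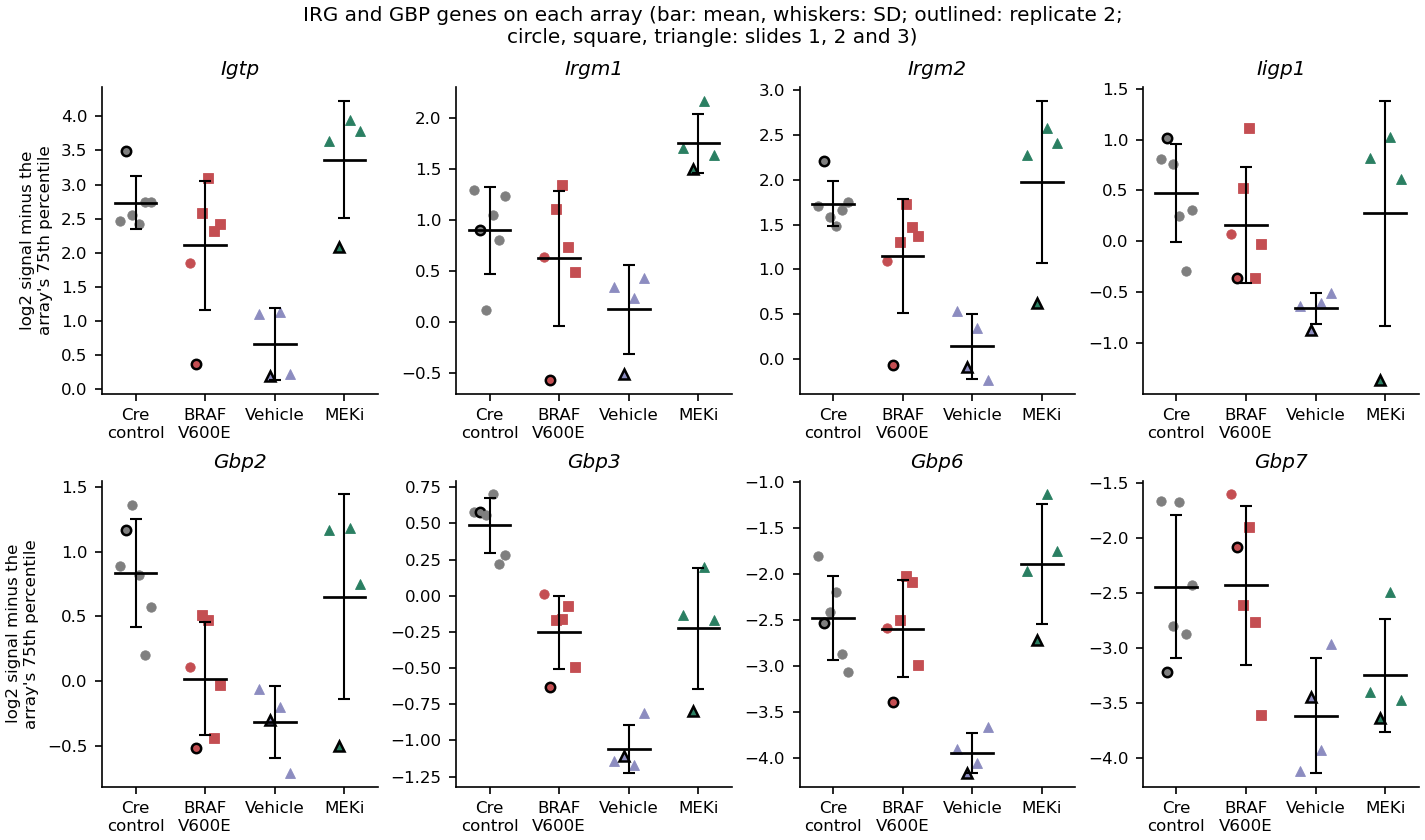
Level of each gene (log2 signal minus the array's 75th percentile, main probe) on each array in the 4 groups, with mean and SD; shapes give the slide and replicate 2 of each group is outlined. MEKi replicate 2 is the lowest MEKi array in every panel, at 2.09 for Igtp and -1.36 for Iigp1.

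The genes moved together from array to array. MEKi replicate 2 was the lowest of the 4 MEKi arrays for 8 of the 8 genes and MEKi replicate 3 the highest for 8 of the 8. In the mutant group, BRAFV600E replicate 2 was the lowest of 6 for 6 of the 8 genes and BRAFV600E replicate 4 the highest for 5. Averaged over the 8 genes, the level was 0.51, -0.60, 0.93 and 0.48 on MEKi replicates 1 to 4 and between -1.28 and -0.99 on the Vehicle arrays. Even the lowest MEKi array was thus above Vehicle in this average. Over the 28 pairs of genes, the correlation of their deviations from the group mean across the 20 arrays, which share tissue and scaling, had a median of 0.60 and was highest between the neighbours Igtp and Irgm2 at 0.96. It was positive for 26 pairs, and the exceptions were Gbp7 with Igtp (-0.24) and with Irgm2 (-0.14).

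**Figure D4:**
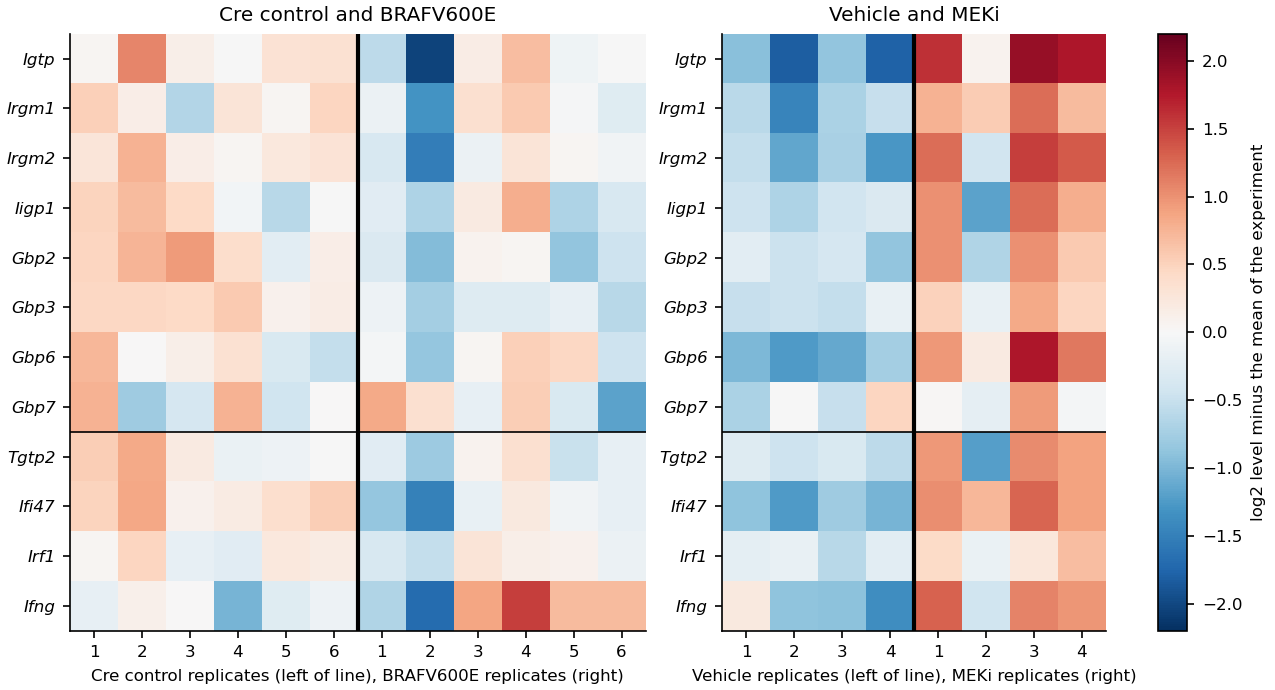
Level of the 8 genes and of Tgtp2, Ifi47, Irf1 and Ifng on each array, minus the gene's mean over its experiment (colour scale in log2 units). The column of MEKi replicate 2 is paler or bluer than its neighbours in most rows, and that of BRAFV600E replicate 2 is blue for 7 of the 8 genes.

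The mutant difference varied with the slide and with 1 array. BRAFV600E replicates 1 and 2, which shared slide 1 with all the controls, lay below the Cre control mean for 7 of the 8 genes, by a median of -0.83, whereas replicates 3 to 6 on slide 2 lay below it for 6 of the 8 by a median of -0.21. The slide 1 value rests on 2 arrays that stood apart: replicate 1 lay a median of -0.44 from the Cre control mean and replicate 2 a median of -1.24. The 4 arrays of slide 2 had medians of -0.16, 0.41, -0.37 and -0.51, so replicate 1 lay within their range and replicate 2 below it. Without replicate 2 the median difference of the 8 genes was -0.25. Igtp differed most between the slides, at -1.62 on slide 1 and -0.13 on slide 2. Gbp3 and Gbp2 were lower on both, Gbp3 by -0.80 and -0.71 and Gbp2 by -1.04 and -0.70. Slide 2 held no control, so for its arrays slide and genotype cannot be told apart. With slide as a block, limma called Igtp, Irgm2 and Gbp3 and no longer Gbp2, where it called 1568 of all genes in place of 2459. As slide 2 held no control, the differences in that fit are those of slide 1, from BRAFV600E replicates 1 and 2 against the controls. The arrays of slide 2 add only to its estimate of the spread. Within slide 1 alone it called 0 of the 8 and 731 of all genes.

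The inducer and its receptor chain were read next. Ifng, the ligand, was dim: its probe was well above background on 4 of 4 MEKi and 1 of 4 Vehicle arrays. Its level was -3.44, -5.18, -3.65 and -3.77 on MEKi replicates 1 to 4 and -4.52, -5.62, -5.64 and -6.11 on Vehicle replicates 1 to 4. MEKi replicate 2 was again the lowest of its group and lay within the Vehicle range, and the difference of 1.46 ± 0.46 (SE) did not pass the test (limma adjusted p = 0.164). In the mutant comparison Ifng differed by 0.48 ± 0.46 (SE, limma adjusted p = 0.521), with means of -6.10 on slide 1 and -3.97 on slide 2 around a Cre control mean of -5.16.

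The receptor and kinase genes did not pass in either comparison. Under MEKi the differences were -0.39 ± 0.17 (SE) for Ifngr1, 0.22 ± 0.13 for Ifngr2, -0.08 ± 0.14 for Jak1 and -0.56 ± 0.22 for Jak2. In the mutant they were 0.11 ± 0.15, 0.13 ± 0.20, 0.10 ± 0.10 and 0.44 ± 0.18 in the same order.

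Irf1, a transcription factor of the interferon response, differed under MEKi by 0.61 ± 0.20 (SE, limma adjusted p = 0.181). Its groups did not overlap, but MEKi replicate 2 cleared the highest Vehicle array by 0.02 only. Socs1, the feedback inhibitor of the JAK kinases, differed by 0.77 ± 0.16 (SE, limma adjusted p = 0.0614), also with no overlap. Every MEKi array lay above every Vehicle array for 6.35% of all genes tested. In the mutant comparison Irf1 differed by -0.17 ± 0.17 (SE, limma adjusted p = 0.559) and Socs1 by -0.03 ± 0.20 (adjusted p = 0.946).

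Of the 16 tested genes of interferon-gamma signalling, 2 rose and 0 fell under MEKi, with a median of 0.28. Over all genes tested, 1.06% were called higher. The 2 were Ciita, the master regulator of MHC class II (1.86 ± 0.18, SE), and Socs3, another feedback inhibitor (1.18 ± 0.18, SE). In the mutant 1 of 16 rose, Irf2, a relative of Irf1 that can oppose it (0.74 ± 0.14, SE), and the median was 0.08. There 6.40% of all genes tested were called higher.

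Most other IRG and GBP genes differed in the same direction as the members. Of 17 tested, 16 had a positive difference under MEKi, with a median of 0.58. The 17 include the Tgtp2 probe, which also reads Tgtp1, and come from the same arrays, so their signs are not separate observations. Of the 17, 3 passed, where 1.06% of all genes tested were called higher. They were Ifi47 (Irgd) at 1.96 ± 0.16, Gm12250 (Irgb10) at 2.06 ± 0.29 and the IRG gene Gm5431 at 2.12 ± 0.32 (SE). Ifi47 kept its call whichever array was left out, and MEKi replicate 2, at 2.36, was close to the other 3 at 2.52 to 2.90. Its Vehicle arrays lay between 0.38 and 0.85. In the mutant 16 of 17 differences were negative, with a median of -0.43. Of the 17, 2 fell and 1 rose, where 6.51% of all genes tested were called lower and 6.40% higher. The called genes were Gm4841 by -1.11 ± 0.27, Gbp4 by -0.93 ± 0.20 and Irgq, a divergent member of the family, by 0.59 ± 0.15 (SE).

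Genes that interferon-gamma also induces but that are no GTPases formed a list chosen with earlier results of these data known. Over all genes tested, 1.06% were called higher under MEKi and 0.889% lower. Of this list 9 of 26 rose and 0 fell, with a median of 0.71. The largest of these were the immunoproteasome subunits Psmb8 (1.97 ± 0.18) and Psmb9 (1.49 ± 0.14), the peptide transporter Tap1 (1.75 ± 0.17), the MHC class II chaperone Cd74 (1.56 ± 0.24) and Xaf1 (1.50 ± 0.28, SE), and 4 others followed. Leaving out 1 array at a time gave 4 to 10 called. The count was 5 without the filter on dim probes or with every probe tested. It was 3 with the Y-linked covariate and 2 with the deposited values not scaled between arrays. In the mutant 2 of 26 fell and 0 rose, with a median of -0.52: Tap2 by -0.91 ± 0.25 and the chemokine Cxcl11 by -0.66 ± 0.18 (SE). That count is near the 6.51% of all genes called lower, and it was 0 in 5 of the 12 fits that left out 1 array and 3 at most in the others. It was 9 with slide as a block, a fit whose differences come from BRAFV600E replicates 1 and 2 alone. Ubd, a ubiquitin-like modifier named here after its value was seen, had the largest MEKi difference of the list at 4.52 ± 1.09 (SE) and did not pass (limma adjusted p = 0.0890).

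Among 13 cytokine, receptor and transcription factor genes upstream of interferon-gamma, 4 fell in the mutant, 0 rose and 9 did not pass, with a median of -0.56. Over all genes tested, 6.51% were called lower. The 4 were Tbx21, the T-bet factor of interferon-gamma-producing lymphocytes (-1.02 ± 0.24), the IL-18 receptor chain Il18r1 (-0.75 ± 0.18), the IL-12 receptor chain Il12rb1 (-0.68 ± 0.19) and Ebi3, a subunit of IL-27 (-0.62 ± 0.14, SE). Il12a, Il12b, Il18, Il15 and Il27 were among those that did not pass, and within slide 1 alone 0 of the list were called. Under MEKi 1 of 12 rose, Il18bp, the secreted inhibitor of IL-18, by 1.57 ± 0.27 (SE), and the median was 0.12. There 1.06% of all genes tested were called higher.

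Type I and III interferon genes, receptors and factors gave 1 of 11 higher under MEKi, Stat2 (0.69 ± 0.13, SE), with a median of 0.07. There 1.06% of all genes tested were called higher. The list held 15 genes, and its ligand genes Ifnb1, Ifne, Ifnk and Ifnl2 were not tested. In the mutant 0 of 11 passed, where limma called 2459 genes over the whole array at the adjusted threshold and 5784 had an unadjusted p under 0.05. The ATG8 conjugation genes, whose products help load IRG and GBP proteins onto vacuoles, had medians of 0.10 and -0.02. Of these 12, only Map1lc3b passed, higher in the mutant by 0.59 ± 0.14 (SE), and 0 passed under MEKi, where 374 genes were called over the whole array and 3149 had an unadjusted p under 0.05.

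**Figure D5:**
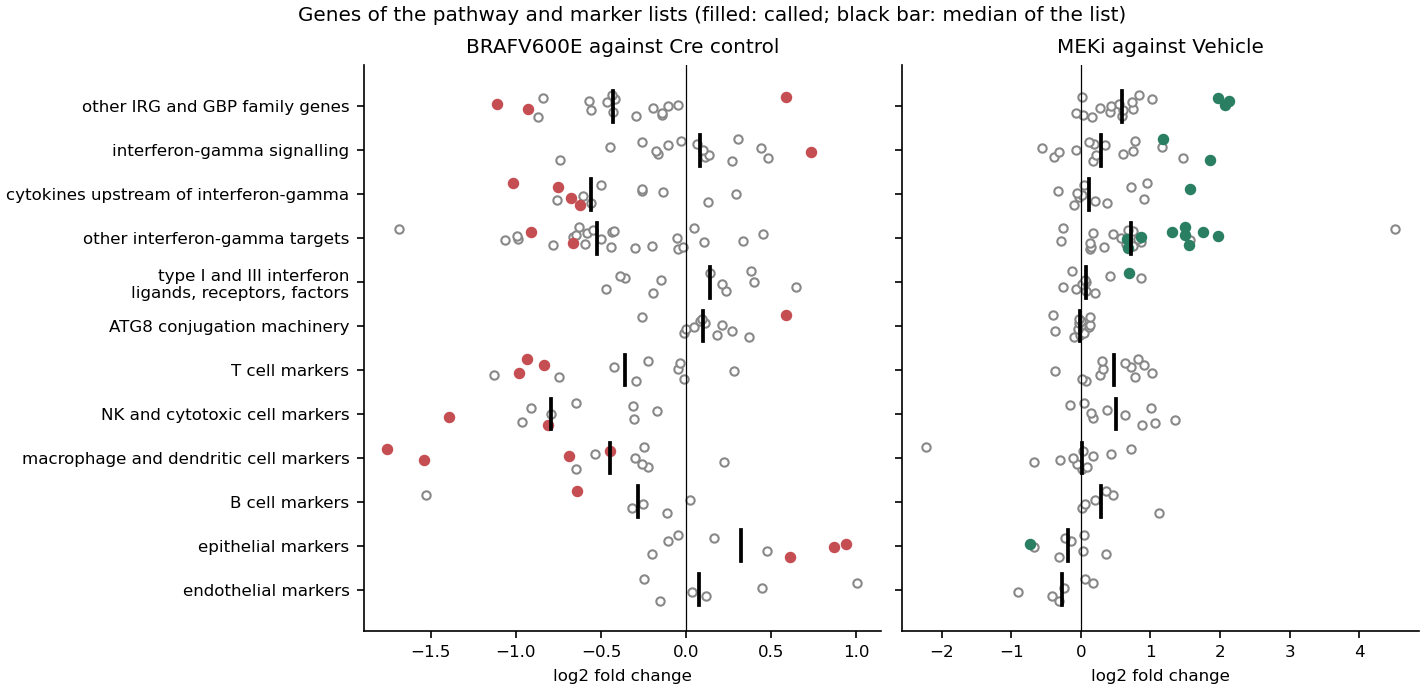
Log2 fold change of every tested gene of the pathway and marker lists in both comparisons, with filled points for called genes and a black bar at the median of the list. Under MEKi the filled points of the interferon lists all lie above 0, and in the mutant those of the T, NK, macrophage and B cell markers all lie below 0.

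The lymphocyte markers were read beside these values, since T cells and NK cells make interferon-gamma. Under MEKi 0 of 12 T cell markers and 0 of 10 NK and cytotoxic cell markers passed, with medians of 0.48 and 0.51. Over all genes tested, 1.06% were called higher. Positive differences were found for 11 of 12 T cell, 9 of 10 NK and 6 of 6 B cell markers. For macrophage and dendritic cell markers it was 6 of 11, and for endothelial markers 2 of 6. The mean NK marker level ran from -1.66 to -1.23 in MEKi and from -2.19 to -1.72 in Vehicle, without overlap, and that of the T cell markers from -0.29 to 0.50 against -0.71 to -0.28. Macrophage and dendritic cell markers (0 of 11 called, median 0.01) ran from 0.98 to 1.22 against 1.02 to 1.42, B cell markers (0 of 6 called, median 0.29) from -2.32 to -1.18 against -2.54 to -2.11, and endothelial markers (0 of 6 called, median -0.28) from -2.54 to -0.88 against -1.70 to -0.82. MEKi replicate 2 was the lowest of its group for each of these 5 marker lists and the highest for the epithelial markers. Their part in the result was not tested.

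In the mutant, 6.51% of all genes tested were called lower. There 3 of 12 T cell markers fell (Cd3g, Lck and Cd8a), as did 2 of 9 NK and cytotoxic markers (Klrb1c and Fasl). So did 4 of 11 macrophage and dendritic cell markers (Lyz2, Cd163, Csf1r and Itgax) and 1 of 6 B cell markers (Pax5), while 0 of 6 endothelial markers passed. Lyz2 fell most of these, by -1.76 ± 0.32 (SE). The mean T cell marker level ran from -0.55 to 0.32 in BRAFV600E and from -0.15 to 0.62 in Cre control, that of the NK markers from -1.82 to -0.86 against -0.94 to -0.35, that of the macrophage markers from 0.96 to 1.67 against 1.18 to 2.11, that of the B cell markers from -2.34 to -1.24 against -1.82 to -1.51 and that of the endothelial markers from -1.05 to -0.35 against -1.34 to -0.38. BRAFV600E replicates 1 and 2, on slide 1, had the lowest mutant means for the T cell (-0.55 and -0.29) and NK markers (-1.82 and -1.61). They were not the lowest pair for the macrophage or B cell markers. For the epithelial markers they were the lowest pair (5.96 and 6.04), and for the endothelial markers the highest (-0.35 and -0.58). The part of these markers in the lower GBP levels was not tested.

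Epithelial markers were bright in all groups, with a mean level from 5.62 to 6.66 over the 20 arrays. In the mutant 3 of 8 rose (Krt19, Krt18 and Cdh1), where 6.40% of all genes tested were called higher. The mean level of the 8 ran from 5.96 to 6.47 against 5.62 to 6.04 in Cre control. BRAFV600E replicates 1 and 2, on slide 1 with the controls, were at 5.96 and 6.04. Replicates 3 to 6, on slide 2, were at 6.26 to 6.47, and slide and genotype cannot be told apart there. Under MEKi 1 of 8 fell, Krt19, by -0.73 ± 0.12 (SE), where 0.889% of all genes tested were called lower. The mean level of the 8 ran from 6.22 to 6.37 against 6.33 to 6.66 in Vehicle.

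The genes most like the members were sought by correlation with their mean level (each member centred within its experiment), over the 12 arrays of the first experiment and the 8 of the second, taking the lower of the 2 values. Out of 18351 genes compared, the closest were Gbp2b, Gm4951, Tgtp2, Prss12, Ifi47, Fgf9, Adgrg5, Apol10a, Agpat4 and Cox6a2, with values from 0.90 down to 0.80. Of these 10, Gbp2b, Gm4951, Tgtp2 and Ifi47 are IRG or GBP genes, and the Tgtp2 probe also reads Tgtp1, one of the members. Apol10a, an apolipoprotein L gene, and Prss12, a secreted protease, had wider differences than any member, at -2.93 and -1.73 in the mutant and 3.63 and 2.58 under MEKi, save that Igtp exceeded Prss12 under MEKi. Ifng stood at 0.89 over the 8 arrays and 0.40 over the 12. The arrays of an experiment share groups, slide and scaling, so these values describe likeness of pattern.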

How the data were processed

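Spot intensity values came from 20 one-colour scanner files, which the authors deposited as written by Agilent Feature Extraction 10.5.1.1 per the file headers (background-subtracted processed signal, mm9 probe coordinates). Other columns used were deposited flags per spot, each a yes or no value: well above background, non-uniformity outlier and population outlier. The mean signal and median background of each spot were used for the normexp alternative alone. Control spots were left out, and spots with either outlier flag were set to missing. The remaining spots of a probe were averaged, and log2 processed signal was taken minus each array's 75th percentile. The 56605 probes were named through RefSeq tables by accession (34023), symbol (9993) or synonym (318), and 12271 stayed unnamed. Members were matched by the scanner files' own gene names; the 2 versions of the design name 2972 probes differently. The probe with the highest mean over 20 arrays stood for a gene.

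A gene was tested when well above background on at least 6 of 12 or 4 of 8 arrays. The 2 comparisons were fitted separately in limma 3.58.1 (lmFit, eBayes, R 4.3.3) with no covariate, Benjamini-Hochberg adjustment over all genes and a threshold of 0.05; tables used Python 3.11.15. The script was tested on simulated data. The labels put samples in groups; replicates were numbered in accession order.

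The members and the 12 gene lists were chosen with earlier results of these data known. Named were all members, Ifng, Ifngr1, Ifngr2, Jak1, Jak2, Irf1 and Socs1, at most the 5 largest called genes per list and direction, and the 10 genes most like the members; a few others are marked, and 1 gene of the signalling list is not reported here. Alternatives were normexp background correction (offset 50), quantile normalization, the authors' deposited series matrix unscaled, no filter, every probe, a Y-linked covariate, slide as a block, slide 1 alone and leaving out each array. Promoters and their GRCm38.p6 coordinates are RefSeq's and were set against no mm9 position.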

Additional observations from a re-analysis of the deposited data

Results flagged for a closer look

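Over 84 groups (8 members and 13 related genes in 4 groups each), 14 held an array standing apart from the others by Dixon's ratio. Chance gives about 1 in 20 for a single group. The 84 share arrays and hold genes that moved together, so the 14 are not separate observations and their number is not set against that rate. MEKi replicate 2 stood low for Igtp at 2.09 (others 3.63 to 3.94), for Irgm2 at 0.63 (2.28 to 2.58), for Tgtp2 at -0.12 (1.97 to 2.12) and for Gbp4 at -2.49 (-0.63 to -0.43). BRAFV600E replicate 2 stood low for Irgm2 at -0.07 (others 1.09 to 1.73) and high for Jak1 at 2.45 (2.26 to 2.33). Cre control replicate 2 stood high for Igtp at 3.49 (2.42 to 2.75) and for Irgm2 at 2.21 (1.49 to 1.75). Vehicle replicate 4 stood high for Gbp3 at -0.81 (-1.17 to -1.11) and low for Jak1 at 2.44 (2.83 to 2.88). The rest were Ifng on Cre control replicate 4 at -5.95 (-5.19 to -4.81), Irf1 on Vehicle replicate 3 at 4.03 (4.41 to 4.47), Socs1 on Cre control replicate 3 at -0.58 (-0.25 to -0.14) and Gm4841 on BRAFV600E replicate 5 at 6.94 (5.90 to 6.04).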

How the results depend on the processing

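Under MEKi all 112 differences of the 8 genes under the alternatives kept their sign, and the median of the 8 stayed between 1.13 and 1.59. The calls did not hold as well: 3 genes were called, 1 with the series matrix, 0 with the Y-linked covariate, and 0 to 7 when 1 array was left out. Without MEKi replicate 2, 7 of the 8 were called (all but Gbp7), and without MEKi replicate 1, MEKi replicate 4 or Vehicle replicate 3, 0 were. In the mutant 145 of 160 differences kept their sign. The series matrix is not scaled between arrays and moved the median of all genes to 0.79; there the members' median was 0.36, Gbp3 differed by 0.072 and Socs1 by 0.78, all higher in place of lower, and all were under that shift. The members' median was -0.83 with slide as a block and within slide 1, which give the same differences because slide 2 held no control. It was -0.61 to -0.25 when 1 array was left out, the latter without BRAFV600E replicate 2. Of the 2 called genes, 0 were called with the series matrix and within slide 1, 1 without the filter on dim probes and with every probe tested, and 1 to 2 when 1 array was left out; Gbp3 kept its call in each of these 12 fits and Gbp2 in 4.

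Over all genes, the mutant count of 2459 became 4825 with normexp, 9337 with the series matrix, 3695 with every probe, 1568 with slide as a block, 731 within slide 1 and 1472 to 2950 when 1 array was left out. The MEKi count of 374 became 72 with the series matrix, 234 without the filter, 54 with the Y-linked covariate and 76 to 370 when 1 array was left out.

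In the mutant, the called genes of the other IRG and GBP family were 5 with normexp and 1 with the series matrix or within slide 1, against 3; of interferon-gamma signalling 10 with the series matrix, against 1; of the upstream cytokines 7 with normexp, 2 with quantile normalization, 1 with the series matrix and 0 within slide 1, against 4; of the other targets 5 with normexp, 4 with quantile normalization, 1 without the filter or with the Y-linked covariate, 9 with slide as a block, 6 within slide 1 and 0 to 3 when 1 array was left out, against 2; of the type I and III list 1 with quantile normalization, 6 with the series matrix and 0 to 1 when 1 array was left out, against 0; and of the ATG8 list 10 with the series matrix and 0 with slide as a block or within slide 1, against 1. Under MEKi, the other IRG and GBP genes called were 1 with the series matrix and 1 to 6 when 1 array was left out, against 3; interferon-gamma signalling 1 with the series matrix or the Y-linked covariate and 1 to 4, against 2; the upstream cytokines 0 with either and 0 to 2, against 1; the other targets 2 with the series matrix, 5 without the filter or with every probe, 3 with the Y-linked covariate and 4 to 10, against 9; and the type I and III list 0 with each of these 4 settings and 0 to 1, against 1. The cause was not tested. No paired analysis was possible because replicate numbers were given in accession order and pair no samples. Dim probes, Ifng above all, limit what can be read at low signal.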
